A study of Mus musculus with 9 samples.

Results

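Genes whose expression was high only when the cells held active FAK were described in mouse squamous cell carcinoma (SCC) cells. Focal adhesion kinase (FAK, encoded by *Ptk2*) is a tyrosine kinase that joins integrins at sites of cell adhesion to signaling inside the cell, and part of it is found in the nucleus. The 3 cell lines were compared by RNA-seq, with 3 biological replicates each. FAK-/- cells (FAK-null in the labels) had lost FAK by *Cre*-lox deletion of *Ptk2*, FAK-WT-expressing cells are the same cells with wild-type FAK put back, and FAK-kd-expressing cells carry a kinase-deficient FAK instead. All 3 lines share the deletion of the endogenous gene. The SCC was induced with the carcinogen DMBA and the promoter TPA in K14CreER FAK flox/flox mice of the FVB strain (a tamoxifen-activated Cre under the keratin 14 promoter), FAK was deleted in culture with 4-hydroxytamoxifen, and the constructs were expressed by retrovirus in a FAK-/- clone. Each comparison is therefore one between stable lines that descend from 1 clone, grown in the same medium. Lines that carry a construct had been selected with hygromycin, a step the study's methods do not give for FAK-/- cells, so effects of transduction and selection cannot be told apart from those of FAK in the comparisons with FAK-/- cells. In bulk RNA, fewer cells that express a gene and less RNA of it per cell cannot be told apart.

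A gene was chosen by its level in CPM, the counts of a gene scaled to the sum of its library. It had to reach at least 5 CPM on average in FAK-WT replicates 2 and 3, and a ratio of at least 4 to the mean of the 3 FAK-/- libraries and to the mean of the 3 FAK-kd libraries, with 0.1 CPM added to each mean. Both FAK-WT libraries also had to lie above all 6 others. Of the 19044 identifiers in the table, 9400 genes reached 5 CPM, 2042 of them had both FAK-WT libraries above the other 6, and 23 (0.245% of the 9400) met the whole rule. The ratio to FAK-/- cells alone left 46 genes and the ratio to FAK-kd cells alone left 36. *Rhox5* is listed under a second identifier with the same counts in every library and was counted once. Because the genes were selected on the differences of FAK-WT from both other lines, those differences are given below as a description with no test. The difference between FAK-kd and FAK-/- cells, the level in FAK-WT replicate 1, and the position and sequence of the genes were not used by the rule.

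FAK-WT replicate 1 held 779755 counts and the other 8 libraries between 25304994 and 37264636. At that depth 3 counts in FAK-WT replicate 1 are 3.85 CPM, against at most 0.119 CPM in any other library, which is why the rule left it out. *Ptk2* was between 217 and 218 CPM in the FAK-WT libraries, 151 to 175 CPM in the FAK-kd libraries and 19.6 to 23.5 CPM in the FAK-/- libraries. This separates FAK-/- cells from both others, while the RNA level of *Ptk2* cannot show whether the FAK made is wild-type or kinase-deficient. FAK-kd cells held less *Ptk2* RNA than FAK-WT cells in every library, and the part of this difference in the results was not tested. Of 20 keratinocyte and SCC markers, 16 were in the table. *Itga6* was at 172 CPM in FAK-WT cells (mean of replicates 2 and 3), while the keratin gene *Krt14* was at 0.0403 CPM and *Cdh1*, which encodes E-cadherin, had no count in any FAK-WT or FAK-kd library. Of 15 fibroblast and endothelial markers, 12 were in the table, and 6 of these reached 1 CPM in a library other than FAK-WT replicate 1. This list summed to between 1656 and 1717 CPM in FAK-WT replicates 2 and 3. The sum was 1344 to 1631 CPM in FAK-/- and 1378 to 1976 CPM in FAK-kd libraries. Nearly all of it in FAK-WT cells came from *Col3a1* alone, at 1661 CPM in FAK-WT, 1437 CPM in FAK-/- and 1688 CPM in FAK-kd cells. The labels call these SCC cells. Of the 16 keratinocyte and SCC markers 7 reached 1 CPM in a library other than FAK-WT replicate 1, and the list summed to 333 and 334 CPM in FAK-WT replicates 2 and 3, 471 to 512 CPM in FAK-/- and 482 to 504 CPM in FAK-kd libraries, carried by integrin and junction genes such as *Itga6*, *Itgb4* (71.7 CPM in FAK-WT cells) and *Jup* (72.1 CPM), while *Krt14*, *Krt6a*, *Krt18*, *Dsp* and *Cdh1* were below 1 CPM in all 3 lines.

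The 23 genes held 388 and 396 CPM in sum in FAK-WT replicates 2 and 3, 56.5 to 60.6 CPM in the FAK-/- libraries and 27.4 to 28.1 CPM in the FAK-kd libraries. *Rhox5* alone made up much of these sums, and without it the FAK-/- libraries held 24.7 to 32.8 CPM and the FAK-kd libraries 17.9 to 20.1 CPM. The level in FAK-WT cells ran from 5.05 CPM for *Ccl7* to 123 CPM for *Rhox5*, with a median of 8.20 CPM. Relative to transcript length, *Rhox5* was at 177, *Gm773* at 77.8 and *Tmem45a* at 40.6 CPM per kb, the highest of the 21 genes with an annotated transcript, and *Shroom2* was at 1.38 CPM per kb, the lowest. The ratio to FAK-/- cells had a median of 9.31 and reached 137 for *Tmem45a*, and the ratio to FAK-kd cells had a median of 14.5 and reached 68.5 for *Nol4l*.

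**Figure D1:**
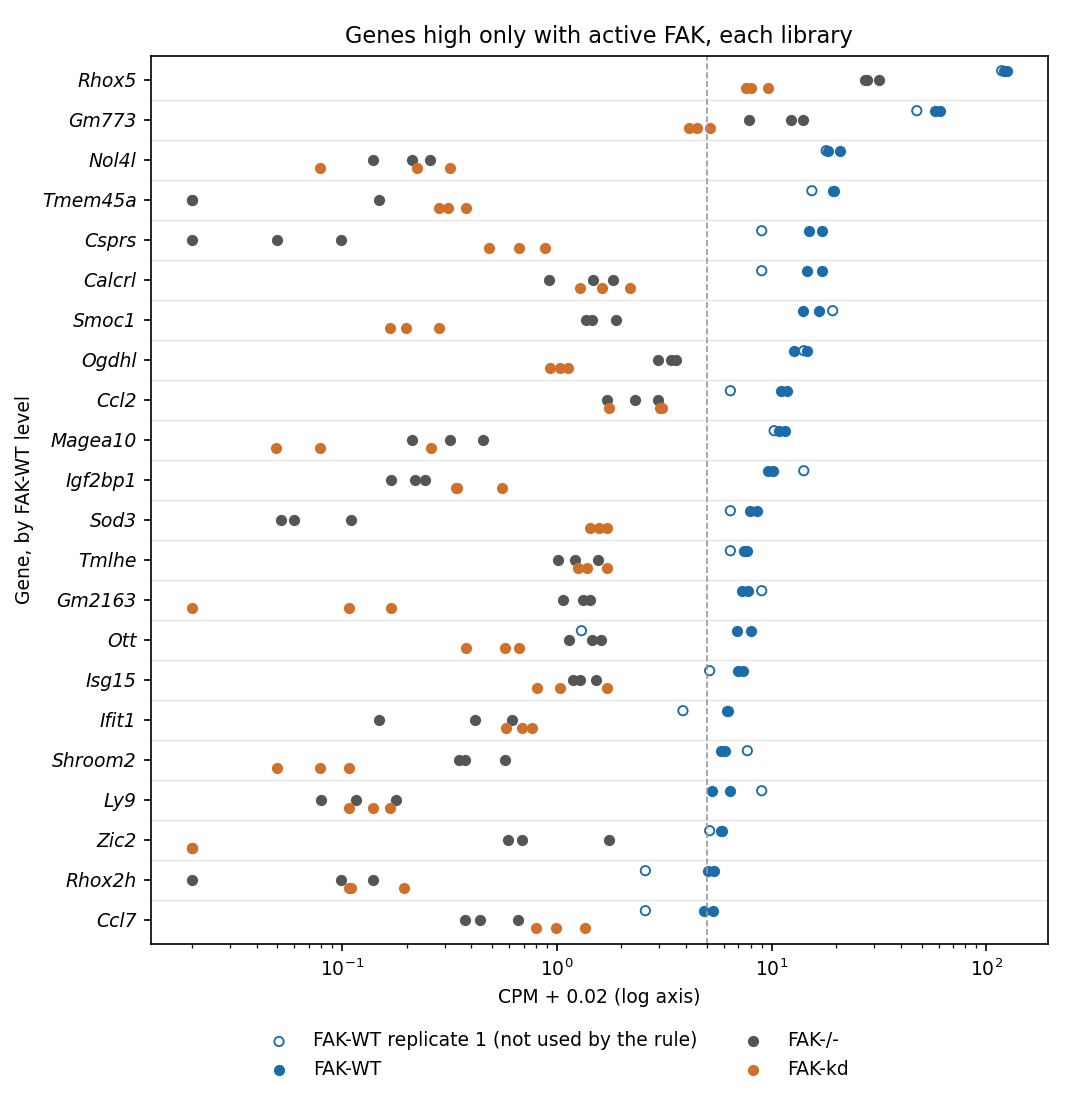
Expression of 22 of the 23 genes in each of the 9 libraries, in CPM with 0.02 added so that a level of 0 can be drawn on the log axis. The dashed line marks the minimum of 5 CPM, filled points of FAK-WT cells are the replicates used by the rule, and the open points (replicate 1) lie above all 6 other libraries except for *Ott*.

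In FAK-WT replicate 1, which played no part in the choice, 22 of the 23 genes lay above all 6 FAK-/- and FAK-kd libraries. The same held for 31.9% of the 9400 genes at 5 CPM. For 18 of the 23 genes the lower bound of the exact 95% Poisson interval of replicate 1, which covers counting error only, also lay above the 6 libraries. The interval held the mean of replicates 2 and 3 for 22 of the 23 genes, and the 23 genes summed to 345 CPM. The exception in both counts was *Ott*, with 1 count (1.28 CPM) where replicates 2 and 3 held 6.87 and 7.96 CPM. The values in replicate 1 rest on 1 to 92 counts per gene, so a gene at its minimum level could not be read there with any precision.

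Genes of the immune response formed a first group. *Ccl2* (ENSMUSG00000035385, chr11:82035571-82037453, plus strand) encodes a chemokine that attracts monocytes, and *Ccl7* (ENSMUSG00000035373, chr11:82045712-82047525, plus strand) a close relative. *Ccl2* was at 6.41, 11.0 and 11.8 CPM in FAK-WT replicates 1, 2 and 3, at 2.94, 2.29 and 1.70 CPM in FAK-/- cells and at 1.73, 3.07 and 3.00 CPM in FAK-kd cells. *Ccl7* was at 2.56, 4.80 and 5.30 CPM in FAK-WT cells, 0.420, 0.356 and 0.640 CPM in FAK-/- cells and 0.968, 0.776 and 1.34 CPM in FAK-kd cells. The rule placed FAK-WT replicates 2 and 3 above the other lines. Replicate 1 was above them as well, on 5 counts for *Ccl2* and 2 for *Ccl7*, with lower Poisson bounds below the highest other library. The ranges of FAK-/- and FAK-kd cells overlapped for *Ccl2*, while every FAK-kd library lay above every FAK-/- library for *Ccl7*. Their receptor *Ccr2* was at 0.0805 CPM in FAK-WT cells.

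The other chemokine genes did not all follow. A list of 34 chemokine genes had 18 in the table. Relative to FAK-/- cells, 5 of these were higher and 2 lower in FAK-WT cells at the threshold (edgeR's quasi-likelihood test, adjusted p of at most 0.05 with a log2 difference of 1 or more in size), where 2.32% and 3.06% of all 19044 identifiers were. Nothing is read from these shares, since *Ccl2* and *Ccl7* had been chosen on these differences. Against FAK-kd cells, 5 were higher and 2 lower, where 2.37% and 2.89% of all identifiers were. Without both chosen genes 3 were higher in each comparison, namely *Ccl5*, *Ccl9* and *Cxcl10*, which stayed under the rule's 5 CPM or its ratio. *Cxcl10*, a chemokine for T cells, was at 2.36 and 2.72 CPM in FAK-WT replicates 2 and 3 and between 0.0880 and 0.567 CPM in the 6 other libraries. *Cx3cl1* ran the other way, with 73.9 to 85.9 CPM in FAK-WT libraries, 410 to 465 CPM in FAK-/- libraries and 298 to 330 CPM in FAK-kd libraries, and with it the summed chemokine level was lower in FAK-WT cells (105 and 111 CPM) than in FAK-/- (419 to 472 CPM) and FAK-kd cells (310 to 340 CPM).

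*Isg15* (ENSMUSG00000035692, chr4:156199424-156200818, minus strand), which encodes a ubiquitin-like protein attached to other proteins in the antiviral response, and *Ifit1* (ENSMUSG00000034459, chr19:34640871-34650009, plus strand), which encodes a sensor of foreign RNA, are both classical interferon-stimulated genes. Interferons induce such genes through STAT and IRF factors bound to an interferon-stimulated response element (ISRE) near the start. The 120 bases before the start of both genes are shown because they hold letters of this element. The sequences are from RefSeq on GRCm38.p6, 5′ to 3′ on the gene's strand, from chr4:156200819-156200938 (minus strand) and chr19:34640769-34640888 (plus strand). Capitals mark matches to GAAANNGAA on either strand, overlapping matches included.
Isg15: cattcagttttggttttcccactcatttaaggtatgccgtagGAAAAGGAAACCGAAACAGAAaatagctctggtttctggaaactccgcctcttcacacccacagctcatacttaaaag
Ifit1: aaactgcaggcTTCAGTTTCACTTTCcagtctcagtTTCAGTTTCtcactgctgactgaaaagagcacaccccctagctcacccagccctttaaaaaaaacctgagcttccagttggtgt
The matches begin 78, 72 and 66 bases before the start of *Isg15* and 109, 103 and 84 bases before that of *Ifit1*. Of all 32851 promoter windows of 250 bases, 7.13% hold at least 1 match. This motif was chosen after both genes were known to be members, and a match is a description of the letters, not of a bound factor.

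*Isg15* was at 5.13, 6.98 and 7.35 CPM in FAK-WT cells, 1.17, 1.26 and 1.5 CPM in FAK-/- cells and 0.792, 1.70 and 1.02 CPM in FAK-kd cells. *Ifit1* was at 3.85, 6.20 and 6.22 CPM in FAK-WT cells, 0.599, 0.395 and 0.128 CPM in FAK-/- cells and 0.557, 0.746 and 0.669 CPM in FAK-kd cells. The rule placed FAK-WT replicates 2 and 3 above the other lines. Replicate 1 was above them as well, on 4 counts for *Isg15* and 3 for *Ifit1*. The 2 other lines overlapped. Of the 31-base words in the transcripts of these genes, 13.1% for *Isg15* and 10.8% for *Ifit1* also occur in transcripts of other genes, so part of their counts depends on how reads were divided.

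A list of 51 interferon-stimulated genes had 48 in the table, of which 27 reached 1 CPM in a library other than FAK-WT replicate 1. In FAK-WT against FAK-/- cells 22 of the 48 were higher and 1 was lower, where 2.32% and 3.06% of all identifiers were. The median log2 fold change was 1.21 where the median over all genes was 0. Against FAK-kd cells 11 were higher and 1 was lower (2.37% and 2.89% of all identifiers), with a median of 0.73. Several of the higher genes rest on few counts, below 1 CPM even in FAK-WT cells, such as *Ifit3* (0.480 CPM, mean of replicates 2 and 3) and *Rsad2* (0.289 CPM). Without the 2 chosen genes, 20 and 9 were higher. DESeq2 called fewer of the 48, with 15 higher against FAK-/- cells and 7 higher and 1 lower against FAK-kd cells. Between the lines without active FAK, 7 of the 48 were higher and 1 was lower in FAK-kd than in FAK-/- cells (0.914% and 1.09% of all identifiers), and these 7 included *Sp100*, *Sp110* and *Sp140*, which encode nuclear body proteins, and *Apol9a* and *Apol9b*. *Sp100* was at 6.87 and 7.58 CPM in FAK-WT replicates 2 and 3, 5.92 to 7.34 CPM in FAK-kd libraries and 0.869 to 1.5 CPM in FAK-/- libraries, so that it was high with FAK-kd as well. Several other listed genes had the pattern of the 23 at a lower level. *Gvin1*, an interferon-induced GTPase gene with near-identical copies, was at 4.37 and 4.98 CPM in FAK-WT replicates 2 and 3 and at most 0.0880 CPM in the other lines. The enzymes and ligase that attach ISG15 to proteins did not show the pattern, with *Ube2l6* at 13.3 CPM in FAK-WT, 13.9 CPM in FAK-/- and 15.4 CPM in FAK-kd cells.

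**Figure D2:**
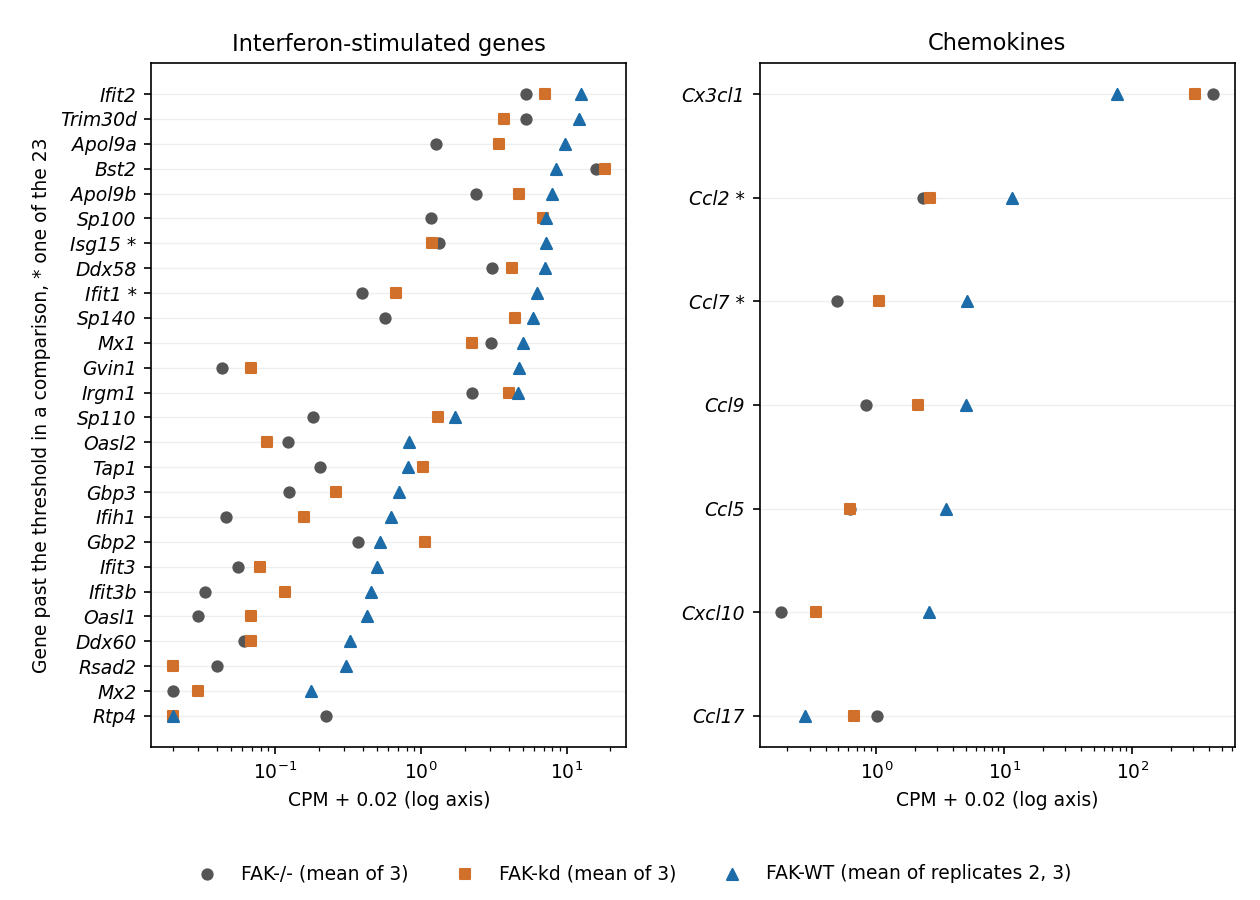
Mean CPM (plus 0.02, log axis) of the interferon-stimulated and chemokine genes past the threshold in at least 1 of the 3 comparisons between the cell lines, with the chosen genes marked by an asterisk. *Isg15*, *Ifit1*, *Ccl2* and *Ccl7* have the FAK-WT mean apart from both others, *Sp100* has FAK-kd beside FAK-WT, and *Cx3cl1* and *Bst2* are lowest in FAK-WT cells.

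*Ly9* (ENSMUSG00000004707, chr1:171588624-171607410, minus strand) encodes a receptor of the SLAM family, known from lymphocytes. It was at 8.98, 5.26 and 6.4 CPM in FAK-WT cells and between 0.0599 and 0.158 CPM in the 6 other libraries, so that the lines without active FAK held 2 to 5 counts per library. It lies within the span of *Cd244a*, another SLAM gene, which had no count in any FAK-WT library. Among the 9 SLAM receptor genes listed, 7 were in the table, and besides *Ly9*, which was chosen for it, only *Cd84* passed the threshold as higher in FAK-WT cells, in both comparisons, at 14.6 CPM against 5.57 CPM in FAK-/- and 6.56 CPM in FAK-kd cells. Markers of leukocytes were not higher in FAK-WT cells. Of 20 leukocyte markers, 11 were in the table, and they summed to 9.71 and 10.1 CPM in FAK-WT replicates 2 and 3, 14.8 to 19.8 CPM in FAK-/- and 14.8 to 17.8 CPM in FAK-kd libraries. *Ptprc*, which encodes CD45, was at 0.180, 0.329 and 0.108 CPM in FAK-WT, FAK-/- and FAK-kd cells, and *Csf1r* and *Laptm5* had no count in any FAK-WT library. Of 23 inflammasome and DNA-sensing genes, 20 were in the table. Of these, 6 were higher in FAK-WT cells against FAK-/- cells and 5 against FAK-kd cells, where 2.32% and 2.37% of all identifiers were. None was lower at the threshold in edgeR or DESeq2, with 3 lower in each comparison at an unadjusted p under 0.05. Among them *Aim2*, a sensor of DNA in the cytosol, was at 4.0 and 5.18 CPM in FAK-WT replicates 2 and 3 and at most 0.192 CPM in the other lines, just under the minimum of the rule.

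Genes of the X chromosome, most of them known from the germ line or placenta, formed a second group. Of the 23 genes 6 (26.1%) lie on the assembled X chromosome, against 300 (3.20%) of the 9379 genes at 5 CPM with an annotated position. Genes on scaffolds outside the assembled chromosomes, 2 of the 23, were not counted as X-linked, whatever chromosome the scaffold belongs to. *Rhox5* (ENSMUSG00000095180, chrX:37804842-37808876, plus strand) and *Rhox2h* (ENSMUSG00000079627, chrX:37668989-37673277, minus strand) belong to the reproductive homeobox cluster, whose genes encode transcription factors of testis, ovary and placenta. *Rhox5* was at 118, 121 and 125 CPM in FAK-WT cells, 27.8, 27.1 and 31.7 CPM in FAK-/- cells and 9.56, 7.58 and 8.03 CPM in FAK-kd cells. No 2 lines overlapped, and the lowest level was with FAK-kd. *Rhox2h* was at 2.56, 5.04 and 5.36 CPM in FAK-WT cells and at most 6 counts (0.174 CPM) in any other library. The share of its 31-base words found in other transcripts, mainly other *Rhox2* copies, was 68.2%, so its own level is uncertain.

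*Magea10* (ENSMUSG00000043453, chrX:72381870-72386858, minus strand) encodes a protein of the melanoma antigen family, which is usually silent outside the testis. It was at 10.3, 10.8 and 11.6 CPM in FAK-WT cells, 0.300, 0.435 and 0.192 CPM in FAK-/- cells and 0.0586, 0.239 and 0.0291 CPM in FAK-kd cells. *Ott* (ENSMUSG00000094885, chrX:149074282-149138152, plus strand), named for its transcription in ovary and testis, was at 1.28, 6.87 and 7.96 CPM in FAK-WT cells, 1.44, 1.58 and 1.12 CPM in FAK-/- cells and 0.645, 0.358 and 0.553 CPM in FAK-kd cells. All of its 31-base words occur in transcripts of other genes, so the value belongs to the family of copies rather than to a single gene. *Gm773* (ENSMUSG00000073177, chrX:56189827-56212881, minus strand), a predicted gene, was at 47.5, 57.6 and 61.0 CPM in FAK-WT cells, 13.9, 12.3 and 7.84 CPM in FAK-/- cells and 5.16, 4.12 and 4.48 CPM in FAK-kd cells. *Shroom2* (ENSMUSG00000045180, chrX:152609509-152769465, minus strand), a gene of an actin-binding protein, was at 7.69, 5.8 and 6.05 CPM in FAK-WT cells, 0.330, 0.553 and 0.352 CPM in FAK-/- cells and 0.0586, 0.0299 and 0.0872 CPM in FAK-kd cells. In 5 of these 6 genes, all but *Ott*, every FAK-WT library lay above both other lines.

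A list of 44 genes of X-linked germ-cell and placental families had 22 in the table, and 3 of these were among the 23. Against FAK-/- cells 4 were higher in FAK-WT cells, and none was lower in edgeR or DESeq2 (1 at an unadjusted p under 0.05). Of all identifiers 2.32% were higher and 3.06% lower in that comparison. Against FAK-kd cells 8 were higher and 1 was lower, where 2.37% and 2.89% of all identifiers were. Without the 3 chosen genes, 1 was higher against FAK-/- cells and 5 against FAK-kd cells. In FAK-kd against FAK-/- cells 1 was higher and 5 were lower (0.914% and 1.09% of all identifiers). The 1 was *Xlr3a*, at 16.3 to 19.9 CPM in FAK-kd libraries against 2.49 to 2.91 CPM in FAK-/- and 1.28 to 2.52 CPM in FAK-WT libraries. Of germ-cell genes on autosomes, 3 of 16 were higher in FAK-WT cells against FAK-/- cells and 4 of 16 against FAK-kd cells (2.32% and 2.37% of all identifiers). Y-linked genes moved between the lines as well. *Ddx3y* was at 14.1 to 18 CPM in FAK-WT libraries, 34.7 to 49.0 CPM in FAK-/- and 40.1 to 43.1 CPM in FAK-kd libraries, and *Uba1y* was at 13.3, 61.1 and 0.962 CPM in FAK-WT (mean of replicates 2 and 3), FAK-/- and FAK-kd cells. The part of differences between the lines in their sex chromosomes was not tested.

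Among extracellular proteins were *Smoc1* (ENSMUSG00000021136, chr12:81026808-81186414, plus strand), a secreted matricellular protein gene, and *Sod3* (ENSMUSG00000072941, chr5:52363791-52371418, plus strand), which encodes the extracellular superoxide dismutase. *Smoc1* was at 19.2, 16.5 and 14.0 CPM in FAK-WT cells, 1.86, 1.34 and 1.44 CPM in FAK-/- cells and 0.147, 0.179 and 0.262 CPM in FAK-kd cells. Its close relative *Smoc2* ran the other way, at 26.3 to 32.1 CPM in FAK-WT, 202 to 213 CPM in FAK-/- and 123 to 183 CPM in FAK-kd libraries. *Sod3* was at 6.41, 8.51 and 7.90 CPM in FAK-WT cells, 0.0899, 0.0395 and 0.0320 CPM in FAK-/- cells and 1.41, 1.55 and 1.69 CPM in FAK-kd cells, with no overlap between any lines. The cytosolic and mitochondrial dismutase genes showed no such gap, with *Sod1* at 190, 189 and 190 CPM and *Sod2* at 86.8, 72.9 and 69.3 CPM in FAK-WT, FAK-/- and FAK-kd cells. Of 35 matrix crosslinking and matricellular genes 31 were in the table. In FAK-WT cells 9 were higher and 4 lower relative to FAK-/- cells, where 2.32% and 3.06% of all identifiers were. Relative to FAK-kd cells 7 were higher and 6 lower, where 2.37% and 2.89% of all identifiers were. The list was thus split in direction. Without *Smoc1* and *Sod3*, 7 and 5 were higher.

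Membrane proteins included *Calcrl* (ENSMUSG00000059588, chr2:84330626-84425411, minus strand), the receptor that binds adrenomedullin or calcitonin gene-related peptide according to which RAMP protein it pairs with. *Calcrl* was at 8.98, 14.7 and 17.1 CPM in FAK-WT cells, 1.80, 1.46 and 0.896 CPM in FAK-/- cells and 1.26, 1.61 and 2.18 CPM in FAK-kd cells, where the last 2 lines overlapped. Of its partners *Ramp3* was at 22.5, 35.9 and 25 CPM in FAK-WT, FAK-/- and FAK-kd cells, while *Ramp1* and *Ramp2* stayed at or below 0.465 CPM in every library. *Tmem45a* (ENSMUSG00000022754, chr16:56805161-56886166, minus strand), a transmembrane protein gene expressed in keratinizing epidermis, was at 15.4, 19.3 and 19.5 CPM in FAK-WT cells, 0.264, 0.358 and 0.291 CPM in FAK-kd cells and had counts in only 1 of the 3 FAK-/- libraries (4 counts, 0.128 CPM).

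Regulators of transcription and RNA were *Zic2*, *Igf2bp1* and *Nol4l*. *Zic2* (ENSMUSG00000061524, chr14:122475435-122479852, plus strand), a zinc-finger transcription factor gene known from brain development, was at 5.13, 5.77 and 5.88 CPM in FAK-WT cells, 0.569, 0.672 and 1.73 CPM in FAK-/- cells and had no count in any FAK-kd library. *Zic1* stayed at or below 0.116 CPM in all 9 libraries. *Igf2bp1* (ENSMUSG00000013415, chr11:95957163-96005940, minus strand) encodes an oncofetal mRNA-binding protein. It was at 14.1, 10.1 and 9.61 CPM in FAK-WT cells, 0.15, 0.198 and 0.224 CPM in FAK-/- cells and 0.323, 0.537 and 0.320 CPM in FAK-kd cells. Its paralog *Igf2bp2* was far more even, at 177 CPM in FAK-WT, 159 CPM in FAK-/- and 160 CPM in FAK-kd cells. *Nol4l* (ENSMUSG00000061411, chr2:153407462-153529971, minus strand), a nucleolar protein 4-like gene, was at 18, 20.9 and 18.2 CPM in FAK-WT cells and between 0.0586 and 0.299 CPM in the 6 other libraries, with the other 2 lines overlapping.

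The metabolic genes were *Ogdhl* and *Tmlhe*. *Ogdhl* (ENSMUSG00000021913, chr14:32322019-32348151, plus strand) encodes a paralog of the E1 subunit of the 2-oxoglutarate dehydrogenase complex of the citric acid cycle. It was at 14.1, 14.6 and 12.7 CPM in FAK-WT cells, 3.57, 3.40 and 2.94 CPM in FAK-/- cells and 0.909, 1.01 and 1.11 CPM in FAK-kd cells. Other genes of this complex lay closer together between the lines, with *Ogdh* at 189, 151 and 161 CPM and *Dlst* at 209, 189 and 202 CPM in FAK-WT, FAK-/- and FAK-kd cells. *Tmlhe* (ENSMUSG00000079834, on the scaffold GL456233.1), the gene of the first enzyme of carnitine synthesis, was at 6.41, 7.43 and 7.70 CPM in FAK-WT cells, 1.2, 1.54 and 0.991 CPM in FAK-/- cells and 1.23, 1.70 and 1.37 CPM in FAK-kd cells. *Aldh9a1*, a later enzyme of the same synthesis, was at 75.1, 81.3 and 82.2 CPM in the 3 lines.

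The remaining genes described were *Csprs* and *Gm2163*. *Csprs* (ENSMUSG00000062783, on the scaffold GL456221.1), a component of the Sp100-related repeat cluster, was at 8.98, 14.9 and 17.1 CPM in FAK-WT cells, 0.645, 0.866 and 0.465 CPM in FAK-kd cells and at most 2 counts (0.0790 CPM) in a FAK-/- library. *Gm2163* (ENSMUSG00000095779, chr4:42466752-42589938, plus strand), a predicted gene that shares 93.2% of its 31-base words with other genes, was at 8.98, 7.76 and 7.30 CPM in FAK-WT cells, 1.05, 1.30 and 1.41 CPM in FAK-/- cells and at most 5 counts (0.149 CPM) in a FAK-kd library.

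The order of FAK-/- and FAK-kd cells was then compared, to show how much expression was left without FAK and with a kinase-deficient FAK. FAK-/- cells kept a median of 9.34% of the FAK-WT level (range 0.22% to 24.2%) and FAK-kd cells a median of 6.82% (range 0 to 22.9%), where the rule held both to about 25% at most. The mean was higher in FAK-/- cells for 11 genes and in FAK-kd cells for 12. Every FAK-kd library lay below every FAK-/- library for 8 of the 23 genes and above for 5, and the lines overlapped for 10. Among the 9400 genes at 5 CPM the shares were 19.4% below and 16.6% above.

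**Figure D3:**
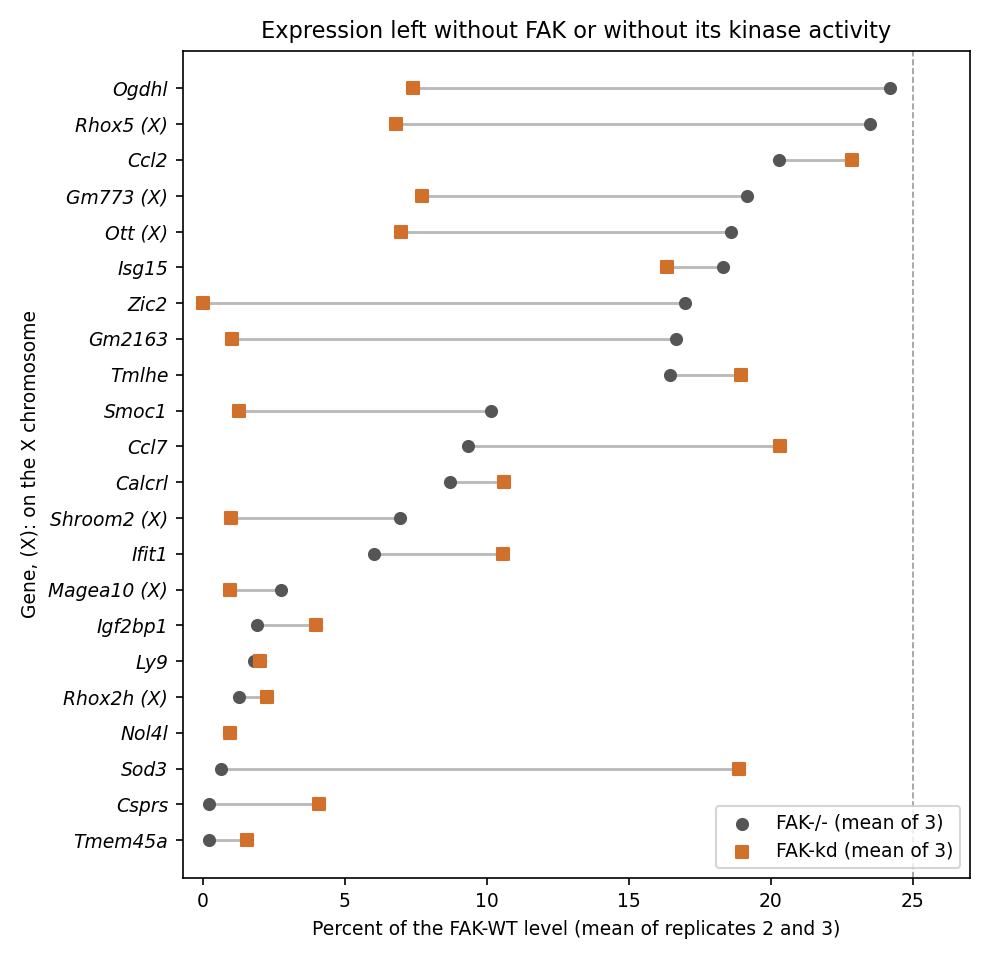
Mean expression in FAK-/- cells (circles) and FAK-kd cells (squares) as a percentage of the FAK-WT mean of replicates 2 and 3, for 22 of the 23 genes, sorted by the FAK-/- value, with a dashed line at 25%. *Ogdhl*, *Rhox5* and *Zic2* show more left in FAK-/- cells, *Sod3* and *Ccl7* more left in FAK-kd cells, and for *Nol4l* the points coincide.

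In edgeR's fit of all genes, 12 of the 23 genes passed the threshold between FAK-kd and FAK-/- cells. FAK-kd cells were lower in 8 (34.8% of the 23, against 1.09% of all identifiers) and higher in 4 (17.4%, against 0.914%). The median log2 fold change over the 23 genes was 0.07 and over all genes 0. Of the 8 lower genes 4 are X-linked (*Rhox5*, *Gm773*, *Ott*, *Shroom2*), and of the 4 higher genes none is.

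*Rhox5* fell in FAK-kd cells, with 8.39 ± 1.04 CPM (SD, n = 3) against 28.9 ± 2.49 CPM (SD, n = 3) in FAK-/- cells. Its log2 fold change was -1.77 (standard error 0.11, edgeR adjusted p = 5.86e-08). *Ogdhl* fell from 3.30 ± 0.323 to 1.01 ± 0.0981 CPM (SD, n = 3 each), a log2 fold change of -1.69 (standard error 0.18, edgeR adjusted p = 1.99e-05). *Smoc1* fell from 1.55 ± 0.274 to 0.196 ± 0.0593 CPM, a log2 fold change of -2.94 (edgeR adjusted p = 6.82e-06). *Smoc1* thus kept 10.1% of its FAK-WT level without FAK and 1.28% with FAK-kd. The log2 fold change was -1.29 for *Gm773* (edgeR adjusted p = 0.000241), -2.69 for *Shroom2* (edgeR adjusted p = 0.00146) and -3.91 for *Gm2163* (edgeR adjusted p = 6.25e-05). The value of *Gm2163* rests on 3, 5 and 0 counts in the FAK-kd libraries and was -4.69 without FAK-kd replicate 2 and -3.34 without FAK-kd replicate 3. *Ott* fell by 1.38 (edgeR adjusted p = 0.0218), and this call was lost without FAK-kd replicate 2, FAK-kd replicate 3 or FAK-/- replicate 2.

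*Zic2* had 90 counts over the 3 FAK-/- libraries and none over the 3 FAK-kd libraries (edgeR adjusted p = 8.47e-05). With the floor set at 3 counts per FAK-kd library, it was at least 11.2-fold lower with FAK-kd. FAK-/- replicate 3 held 54 of the 90 counts, and the other FAK-/- libraries held 19 and 17. For *Shroom2*, 36 counts in FAK-/- and 6 in FAK-kd cells gave a ratio of 6.80 with an exact 95% interval of 2.84 to 19.8 for counting error.

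*Sod3* rose in FAK-kd over FAK-/- cells, from 0.0538 ± 0.0315 to 1.55 ± 0.14 CPM (SD, n = 3 each), a log2 fold change of 4.72 (SE 0.36, edgeR adjusted p = 7.78e-07). The pooled counts of 158 in FAK-kd and 5 in FAK-/- cells gave a ratio of 27.9 (exact 95% interval 11.7 to 87.0, for counting error only), and the log2 fold change was 5.30 without FAK-/- replicate 1. *Sod3* was thus nearly silent without FAK and kept 18.9% of its FAK-WT level with FAK-kd. *Csprs* rose by a log2 fold change of 4.15 (edgeR adjusted p = 0.000194), with 67 counts against 3. The ratio was 19.7 (exact 95% interval 6.46 to 97.9, for counting error only), and the log2 fold change was 5.08 without FAK-/- replicate 2. *Tmem45a* rose by 2.68 (standard error 0.62, edgeR adjusted p = 0.0145) on the log2 scale, with 9, 12 and 10 counts in the FAK-kd libraries against 0, 0 and 4 in the FAK-/- libraries. The log2 fold change was 2.06 without FAK-/- replicate 1 and 6.18 without FAK-/- replicate 3, which held all 4. *Ccl7* rose by 1.12 (standard error 0.33, edgeR adjusted p = 0.0487), and its call lies at the threshold. It was lost in 11 of the 15 alternatives run, with the log2 fold change between 0.89 and 1.4 over all 15. These were DESeq2, its size factors, no TMM factors, a fit of both groups alone, and leaving out any FAK-kd library, FAK-/- replicate 1 or 2, or FAK-WT replicate 2 or 3. *Tmem45a* lost its call without FAK-kd replicate 2, without FAK-kd replicate 3 and when only the FAK-kd and FAK-/- libraries were fitted.

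The other 11 genes did not pass, with log2 fold changes from -1.44 (*Magea10*, edgeR adjusted p = 0.124) to 1.05 (*Igf2bp1*, edgeR adjusted p = 0.0905). For some of them the data bounded the difference closely. The 95% interval, a normal approximation narrower than edgeR's test allows, was -0.70 to 0.39 for *Isg15*, -0.31 to 0.68 for *Ccl2* and -0.23 to 0.69 for *Tmlhe*. It was wider for genes with few counts, -0.83 to 0.98 for *Nol4l*, -0.77 to 1.23 for *Ly9* and -0.55 to 2.15 for *Rhox2h*. For *Ifit1* the interval ran from 0.03 to 1.60, though the unadjusted p of edgeR's quasi-likelihood test was 0.0599. For *Igf2bp1* the interval ran from 0.36 to 1.75, above 0 before adjustment over all genes. For *Magea10* it ran from -2.48 to -0.40, below 0 before adjustment, and *Magea10* passed as lower in FAK-kd cells without FAK-kd replicate 2 and without FAK-/- replicate 3.

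**Figure D4:**
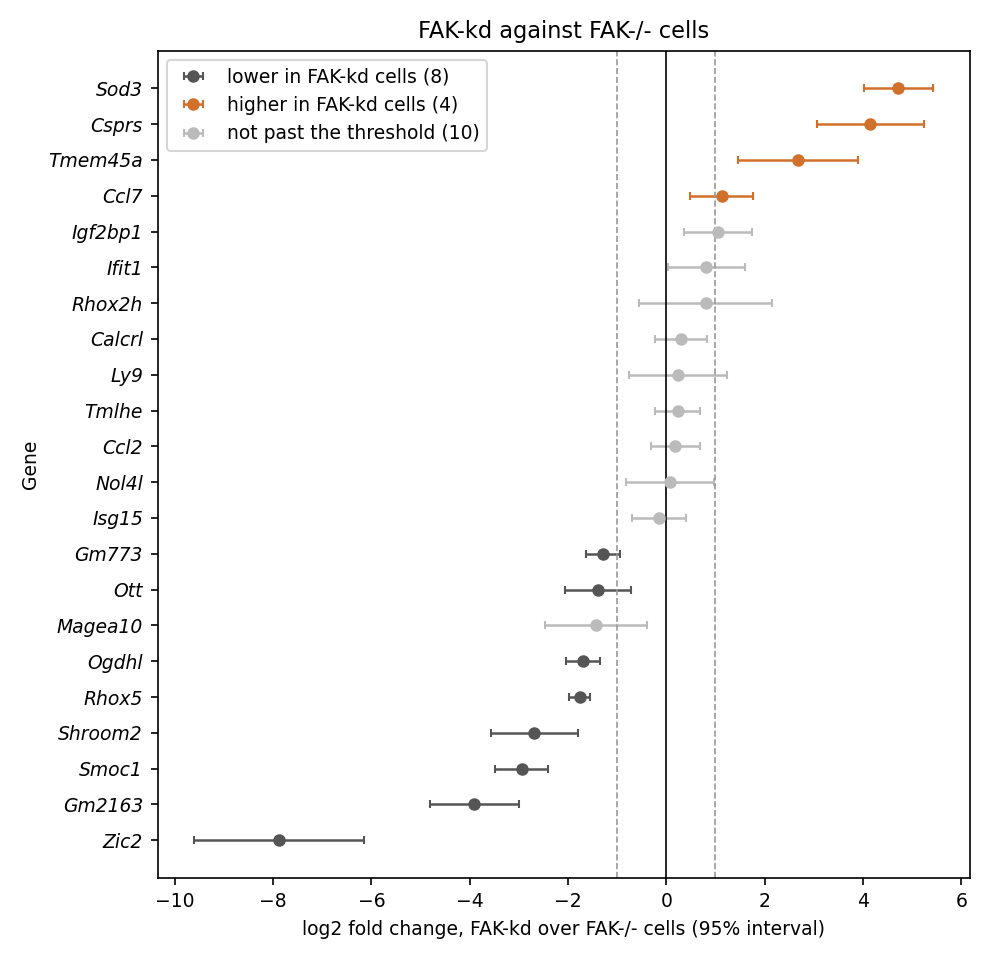
Log2 fold change of FAK-kd over FAK-/- cells from edgeR for 22 of the 23 genes, with its approximate 95% interval, and dashed lines at the fold-change minimum of 1. Lower genes run from *Zic2* to *Gm773*, higher genes are *Sod3*, *Csprs*, *Tmem45a* and *Ccl7*, and the 10 grey genes drawn did not pass the threshold.

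In position, the genes were spread over the genome. Apart from the 6 on the assembled X chromosome, 15 lie on assembled autosomes and 2 on scaffolds outside the assembled chromosomes. Pairs within 1 Mb were *Ccl2* and *Ccl7*, 8259 bases apart, and *Rhox2h* and *Rhox5*, 131565 bases apart. Within 200 kb of the 23 genes the table held 84 other genes, of which 36, next to 14 of the 23, reached 5 CPM. Their ratio of FAK-WT to FAK-/- cells had a median of 1.08 and ran from 0.705 to 2.39, and 32 of the 36 lay within 1.5-fold of 1 in both ratios. The exceptions were *Tfpi* beside *Calcrl*, *Ifit2* beside *Ifit1*, *3830403N18Rik* beside *Gm773* and *Clybl* beside *Zic2*. *Tfpi*, which encodes the tissue factor pathway inhibitor, lies 7444 bases from *Calcrl* and was at 13.4 CPM in FAK-WT, 5.54 CPM in FAK-/- and 1.04 CPM in FAK-kd cells. *Ifit2* was at 12.5, 5.21 and 7.12 CPM in the same order. Neighbours under 5 CPM in FAK-WT cells were left out of these ratios, and some of them had large ones in either direction. *Gm3883* beside *Gm2163* (1.39 CPM in FAK-WT cells) had ratios of 5.01 to FAK-/- and 13.6 to FAK-kd cells. *Gm28635* near *Calcrl* (0.107 CPM in FAK-WT cells) had ratios of 0.0177 and 1.48. Each gene was given the median length and GC content of its annotated transcripts, short ones included. Over the 21 genes with an annotated transcript, the median of these lengths was 1603 bases against 1350 over the genes at 5 CPM. The median GC content was 50.3% against 50.4%.

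**Figure D5:**
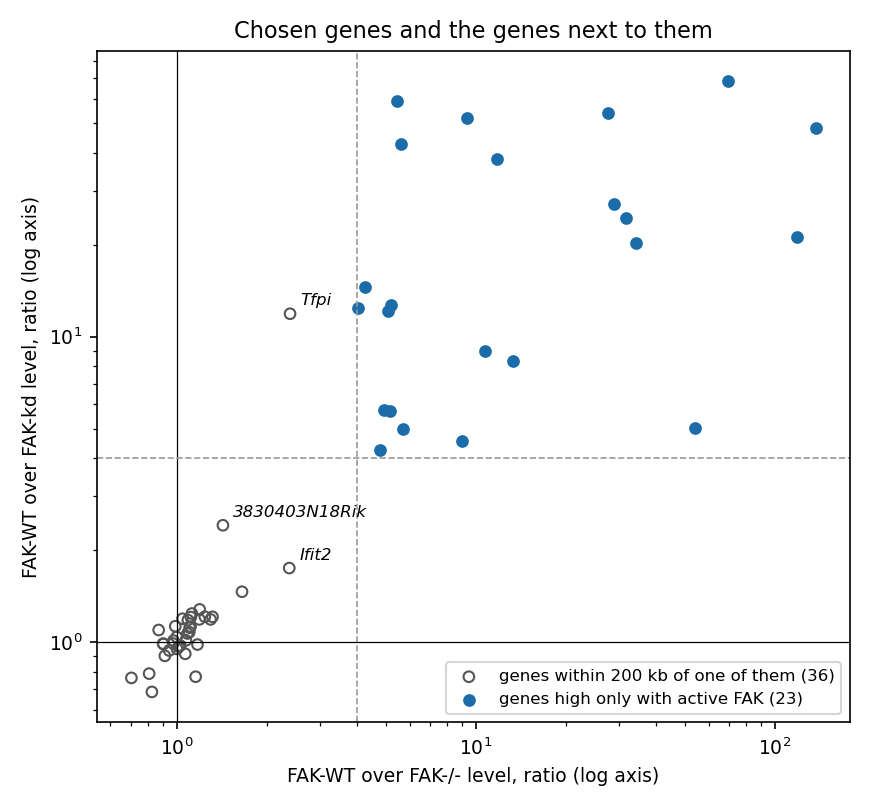
Ratio of FAK-WT to FAK-/- level (x axis) and of FAK-WT to FAK-kd level (y axis), both on log axes, for the 23 genes (filled) and for the 36 genes at 5 CPM or more within 200 kb of one of them (open), with dashed lines at the ratio of 4 that the rule set. Most neighbours drawn lie near 1 on both axes, and *Tfpi* is the only one of those drawn above 4 on an axis.

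Promoter windows, the 250 bases before the start in RefSeq, were matched for 12 of the 23 genes (16 windows). For *Rhox5* and for every window of *Shroom2*, the bases after the window were not found in the GENCODE transcripts of the gene. The window of *Rhox5* (chrX:37754358-37754607) also lies outside the gene span given above, so these windows may not be promoters of the transcripts counted. Motifs were searched on both strands. AP-1 (TGANTCA) and CRE (TGACGTCA) had no match in these windows, where 6.75% and 1.55% of all 32851 windows hold one. ETS (ACTTCCNG) was found in 1 window, that of *Rhox2h*, where 7.58% of all hold it, and TEAD (GGAATG) in 1, that of *Magea10*, where 12.6% of all hold it. The absence of these letters from a window of this size says nothing about sites elsewhere. The ETS match of *Rhox2h* is shown in the 120 bases before its start on GRCm38.p6, chrX:37673278-37673397 (minus strand), with the match, which begins 30 bases before the start, in capitals.
Rhox2h: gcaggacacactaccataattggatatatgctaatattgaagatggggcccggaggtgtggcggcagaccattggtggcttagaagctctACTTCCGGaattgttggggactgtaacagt
Of the factors that bind such motifs, none of 13 AP-1 and none of 25 ETS genes passed the threshold between FAK-WT cells and either other line in edgeR or DESeq2. At an unadjusted p under 0.05 from edgeR, 5 AP-1 genes were lower in FAK-WT cells against FAK-/- cells and 4 against FAK-kd cells, and their summed level was 960 and 1001 CPM in FAK-WT replicates 2 and 3, 1191 to 1489 CPM in FAK-/- and 1106 to 1169 CPM in FAK-kd libraries. Among ETS genes 2 were higher and 7 lower against FAK-/- cells at that p, and 2 higher and 5 lower against FAK-kd cells. Among 26 YAP/TAZ target genes, 1 was higher and 5 were lower in FAK-WT cells in each comparison, the higher one being *Ankrd1*, which met the rule at a ratio of 3. Of 9 claudin genes 2 were higher in FAK-WT cells against FAK-/- cells and 1 against FAK-kd cells, and of 9 protocadherin genes 1 was higher in each comparison and 2 and 1 were lower. Over all identifiers 2.32% were higher and 3.06% lower in FAK-WT cells against FAK-/- cells, and 2.37% and 2.89% against FAK-kd cells.

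The genes near the edges of the rule show how it divides a continuous range. At the level of 5 CPM, *Ccl7* (5.05 CPM) and *Rhox2h* (5.20 CPM) lay just inside, and *Naip2* (4.95 CPM), *Trim54* (4.88 CPM) and *Gvin1* (4.68 CPM) just outside. At the ratio to FAK-/- cells, *Ogdhl* (4.04), *Rhox5* (4.25) and *Ccl2* (4.77) lay inside, and *Usp17la* (3.71), *Thsd4* (3.23) and *Cyp2c55* (2.96) outside. At the ratio to FAK-kd cells, *Ccl2* (4.25), *Ccl7* (4.57) and *Tmlhe* (5.00) lay inside, and *Tinagl1* (3.87), *Pcdh10* (3.79) and *Thrb* (3.65) outside.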

How the data were processed

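RNA-seq libraries of SCC cells were analysed for 3 cell lines with 3 replicates each, grouped by the sample titles. The authors made paired-end libraries with a kit that does not mark strand, so reads of a gene and of an antisense partner cannot be told apart. They estimated transcript abundance with kallisto (0.43.1 in the submitters' processing notes) and summarized it per gene with tximport. What the authors deposited are the estimated counts, as whole numbers and not scaled. The builds named are GRCm38 and mm10, and the transcriptome release is not given in the sources used here. Depth and its counting floor are given in the report. Nothing says whether replicates came from separate cultures beyond the words biological replicates, so p-values measure the spread between these libraries.

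CPM were counts divided by the column sum. Symbols, positions, transcript lengths and shared 31-base words were taken from GENCODE M21 and promoter windows from RefSeq. FAK-kd was compared with FAK-/- cells with edgeR 4.0.16 in R 4.3.3 (TMM, estimateDisp, glmQLFit, glmQLFTest, all 9 libraries in 1 fit, no filter, Benjamini-Hochberg adjustment over 19044 identifiers). The threshold was an adjusted p of 0.05 and a log2 fold change of 1 in size, as in the methods of the study. The steps were tested on simulated data, where 197 of 200 genes changed by a log2 fold of 2 were recovered. These genes were taken from those averaging above 1 CPM, so genes below that in both FAK-kd and FAK-/- cells were not covered. Python 3.11.15 with scipy 1.17.1 gave the other values.

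The genes, the gene lists and the tests were chosen with earlier results of these data known. Of the 23 genes 1 enters the counts but is not reported here on its own. Genes named with values are the other 22, genes at the edges of the rule, genes of the lists, neighbours within 200 kb and *Ptk2*. The ISRE motif and the partner genes of single members (such as *Ramp3*, *Sod1* and *Ogdh*) were chosen after the values were seen. Alternatives were DESeq2 1.42.0, its size factors in edgeR, no TMM factors, filterByExpr, a fit of both groups alone, a replicate block, no fold-change minimum, other cut-offs of the rule and leaving out each library in turn.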

Additional observations from a re-analysis of the deposited data

How the results depend on the processing

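The number of genes high only with active FAK was 23 with TMM effective library sizes and 25 with all 3 FAK-WT libraries (19 shared). It was 37 with a ratio of 3, 11 with a ratio of 6, 69 with a FAK-WT minimum of 1 CPM and 10 with a minimum of 10 CPM. Leaving out 1 library at a time gave 22 to 25. Between FAK-kd and FAK-/- cells, the number of these genes higher in FAK-kd cells was 4, and 2 to 4 when 1 library was left out. It was 2 when only the FAK-kd and FAK-/- libraries were fitted and without FAK-kd replicate 2 or 3, where *Ccl7* and *Tmem45a* no longer passed. The number lower in FAK-kd cells was 8, and 7 to 9 when 1 library was left out. With a replicate block the counts were 4 higher and 8 lower, as without it, and the block changed no call. Libraries with the same number in different lines deviated together no more than others (mean r across genes -0.00699 over 9 pairs, against 0.00317 over 18 pairs with different numbers). This gave no sign that the numbers pair the samples, but with 3 libraries per line it cannot exclude a pairing. Of the 239 alternative values computed, 215 stayed the same, 17 kept direction and lost the threshold, 7 counts moved by over 1.5 times and 0 reversed. For a fold change, the same means the same direction and side of the threshold. For a count, it means within 1.5 times of the reported count, even where single genes such as *Ccl7* lost their call. Depth limits FAK-WT replicate 1 to genes above 3.85 CPM, and *Zic2*, *Csprs*, *Tmem45a*, *Sod3* and *Shroom2* rest on few counts in a line. The causes of these changes were not tested.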
